A study of Mus musculus with 4 samples.

Results

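The genes described here are 9 genes that mark the macrophages of the splenic red pulp or serve their handling of iron, read in RNA from B220+ splenocytes of MIZ-1WT and MIZ-1△POZ mice. They are Spic, Nr1h3, Csf1r, Adgre1, Vcam1, Cd163, Hmox1, Slc40a1 and Slc11a1, taken by name from the 41214 gene rows of the count table, and all 9 were present and passed the filter on low counts. MIZ-1, encoded by Zbtb17, is a zinc finger transcription factor with a POZ domain through which it binds partner proteins. In MIZ-1△POZ mice this domain, flanked by loxP sites, was deleted by MB1-Cre, a recombinase driven by the Cd79a promoter and active in B cells, while MIZ-1WT mice kept the full protein; whether they carried the Cre allele is not given in the sources used here. All mice were on a C57BL/6 background, and the cells were unstimulated. There were 2 libraries per genotype, called biological replicates by the study, with no statement of how many animals gave each.

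Red pulp macrophages take up old red blood cells, break down their hemoglobin and return the iron to the blood. The transcription factor SPIC is needed for their development and is itself induced by heme. Heme oxygenase 1 opens the heme ring and frees its iron, ferroportin exports the iron across the plasma membrane, and NRAMP1 moves it out of the phagosome. These macrophages are not B cells, and B220 is a marker of B cells and of some dendritic cells, so the libraries show these genes as a minor part of a preparation chosen for another cell type.

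That preparation was rich in B cell transcripts in every library. Gene counts summed to between 43026814 and 46387209 per library. The 12 B cell markers, Ms4a1 and Cd79b among them, summed to 11427 to 13521 CPM (gene counts set against the library total, with TMM scaling), against 625 to 3796 CPM for the 9 genes. Zbtb17 was counted 2087 and 1946 times in the MIZ-1WT libraries and 1774 and 1669 times in the MIZ-1△POZ libraries, a log2 fold change of -0.32 (SE 0.06, adjusted p = 0.00857 by the edgeR quasi-likelihood test with Benjamini-Hochberg adjustment); a count over the whole gene does not measure loss of the POZ exons alone. Xist had 49 and 60 counts in the MIZ-1WT libraries and 38145 and 40838 in the MIZ-1△POZ libraries. The Y-linked Ddx3y fell from 15840 and 14896 to 680 and 622. The sex of the animals and the genotype therefore cannot be told apart in any comparison below. Y-linked counts did remain in both MIZ-1△POZ libraries, also for Kdm5d (7722 and 6752 against 401 and 387), and their source was not tested.

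The iron-responsive element is a hairpin in messenger RNA that the iron regulatory proteins IRP1 and IRP2 bind when iron is scarce, which blocks translation where it lies near the 5′ end. Annotated 5′ UTRs (GENCODE M21, GRCm38), with very short ones left out, were searched for its pattern. The pattern was a C bulge, 5 paired bases, the loop CAGTGN with N other than G, and 5 more paired bases. G-U pairs were allowed. It was found in 23 of 20062 genes (0.115%), and in 1 of the 9 genes, Slc40a1, at chr1:45925465-45925493 on the minus strand. The elements of the ferritin genes Ftl1, at chr7:45459779-45459807 on the minus strand, and Fth1, at chr19:9982732-9982760 on the plus strand, are set beside it because the same proteins read all of them. The loop is in capitals.
Slc40a1: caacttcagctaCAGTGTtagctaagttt
Ftl1: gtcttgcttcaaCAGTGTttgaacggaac
Fth1: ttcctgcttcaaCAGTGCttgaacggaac
The loops of Slc40a1 and Ftl1 had the same letters, while the messenger RNAs differed in their counts between the genotypes by unequal amounts, given with the iron genes.

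The RefSeq promoter table (GRCm38.p6) held entries for 4 of the 9 genes, Spic, Slc11a1, Cd163 and Nr1h3. Their 250 bases before the start were searched on both strands for AGGAAGT (an ETS site of the PU.1 type), TGACTCA (AP-1), TGACNNNGC (the core of the antioxidant response element) and CACGTG (an E-box), which 7.69%, 4.46%, 10.2% and 6.02% of 32851 promoters held. Nr1h3 had 2 entries, of which only the first was searched. The ETS letters were chosen after a longer form had given no match in these genes. Of the 4 promoters searched only that of Spic, at chr10:88683024-88683273 on the minus strand, held a match. The match was to AGGAAGT read on the opposite strand at bases -48 to -42, shown in capitals because Spic is the factor that defines the cell type.
Spic: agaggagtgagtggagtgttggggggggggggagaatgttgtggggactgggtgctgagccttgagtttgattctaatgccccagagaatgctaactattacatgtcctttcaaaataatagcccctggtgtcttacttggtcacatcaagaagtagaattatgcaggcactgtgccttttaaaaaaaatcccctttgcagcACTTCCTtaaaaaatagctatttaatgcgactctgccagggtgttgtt

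In the MIZ-1WT libraries all 9 genes were well above the detection limit, with counts from 402 for Nr1h3 to 14509 for Vcam1. Together they made up 0.0613% and 0.0818% of all gene counts. Levels were compared per length as RPKM, the CPM divided by the kilobases of merged exons. Vcam1 was at 34.4 ± 6.36, Hmox1 at 30.4 ± 11.3 and Adgre1 at 28.0 ± 5.92 (mean ± SD, n = 2 here and below). Vcam1 and Hmox1 differed by less than the spread between their libraries, as did Hmox1 and Adgre1. Csf1r followed at 16.6 ± 2.37, Slc40a1 at 11.3 ± 3.28 and Spic at 10.2 ± 1.89, the last pair again within their spread. Slc11a1 at 4.37 ± 0.382, Nr1h3 at 4.04 ± 0.533 and Cd163 at 3.44 ± 0.329 were lowest, and Slc11a1 and Nr1h3 differed by less than their spread. In the MIZ-1△POZ libraries Hmox1 came first with 159 ± 47.0 RPKM and Vcam1 next with 136 ± 49.1, and Cd163 was again last with 12.2 ± 3.98. With the longest annotated transcript in place of merged exons, 7 of the 9 genes kept their rank in the MIZ-1WT libraries. Vcam1 was then at 74.7 ± 13.8 and Hmox1 at 33.9 ± 12.6 in MIZ-1WT, further apart than their spread. By that length Vcam1 (295 ± 107) also came before Hmox1 (178 ± 52.5) in MIZ-1△POZ.

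**Figure D1:**
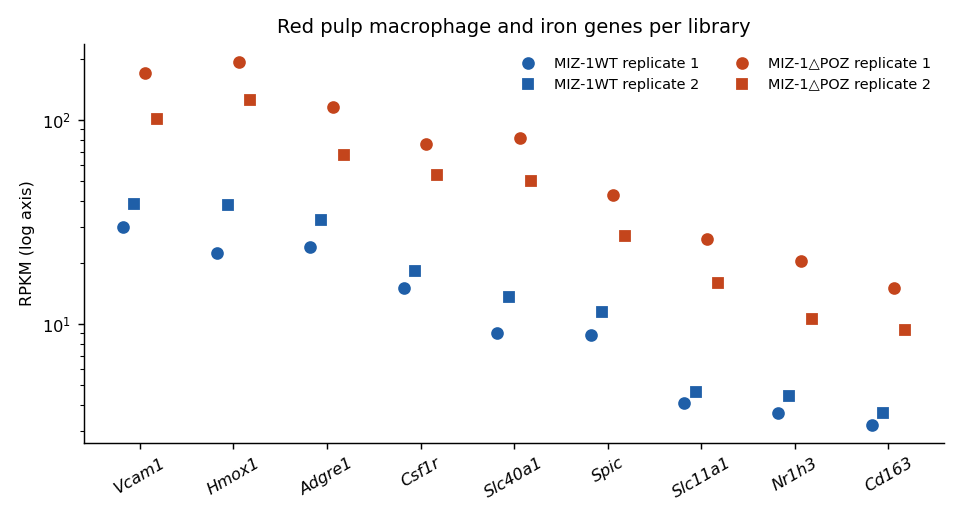
RPKM of the 9 genes in each library on a log axis, ordered by the mean over the MIZ-1WT libraries (blue), with the MIZ-1△POZ libraries in red and circles and squares for replicates 1 and 2. Both red points lie above both blue points for every gene, replicate 1 is the higher red point and the lower blue point throughout, and Vcam1, Hmox1 and Adgre1 lead in both genotypes.

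The question put to the data was whether the genotypes differed in these genes. The genes were chosen with earlier results of these data known, so the number called is not an independent test. All 9 were higher in MIZ-1△POZ than in MIZ-1WT, by 1.71 to 2.54 on the log2 scale with a median of 1.97, and all 9 passed the edgeR quasi-likelihood test at a Benjamini-Hochberg adjusted p under 0.05. Of all 14554 genes tested, 21.1% were called higher and 18.9% lower, and the median log2 fold change was -0.01. Both MIZ-1△POZ libraries lay above both MIZ-1WT libraries in CPM for 9 of 9 genes, as for 37.2% of all genes. With the log2 fold change limit of 0.6 that the study's methods name, joined here to an unadjusted p under 0.05, 9 of 9 passed, against 15% of all genes called higher. A log2 fold change of 1.71 or more was found for 749 of the genes tested, or 5.15%. Leaving out MIZ-1WT replicate 1 lowered the number of all genes called in either direction from 5822 to 2222, and leaving out MIZ-1WT replicate 2 lowered it to 2843; 8 and 9 of the 9 genes remained called. In a bulk preparation more cells of a type and more RNA per cell cannot be told apart, which holds for every gene below.

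The 2 transcription factors of the group, Spic and Nr1h3, were both higher in MIZ-1△POZ. Spic (ENSMUSG00000004359, chr10:88674772-88685015, minus strand), the macrophage factor named above, was counted 1479 and 1857 times in MIZ-1WT and 7842 and 4536 times in MIZ-1△POZ. The lower MIZ-1△POZ library was 2.34-fold above the higher MIZ-1WT library in CPM. Its level rose from 39.0 ± 7.27 to 134 ± 43.4 CPM, a log2 fold change of 1.78 (SE 0.24, edgeR adjusted p = 0.00403). Nr1h3 (ENSMUSG00000002108, chr2:91184061-91202834, minus strand) encodes LXRα, a receptor for oxysterols that controls cholesterol efflux genes. Its counts were 402 and 467 in MIZ-1WT and 2424 and 1164 in MIZ-1△POZ, so the MIZ-1△POZ libraries were both high but far apart. The mean rose from 10.2 ± 1.34 to 38.7 ± 17.3 CPM (log2 fold change 1.93, SE 0.31, edgeR adjusted p = 0.00676), and without MIZ-1WT replicate 1 the change was 1.80 with an adjusted p of 0.0548, past the limit of the call. Its exons overlap those of Gm13783 on the same strand, whose reads could be split from or added to it.

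The 4 receptors and adhesion proteins of the macrophage surface moved by 1.71 to 1.98 on the log2 scale. Csf1r (ENSMUSG00000024621, chr18:61100598-61132149, plus strand), the receptor for the growth factor CSF1 on which most macrophages depend, had 3761 and 4438 counts in MIZ-1WT and 20886 and 13679 in MIZ-1△POZ. It had the smallest standard error of the 9, with a log2 fold change of 1.97 (SE 0.18, edgeR adjusted p = 0.00161) and a mean that rose from 95.9 ± 13.7 to 375 ± 89.9 CPM. Vcam1 (ENSMUSG00000027962, chr3:116109949-116129688, minus strand) encodes an adhesion molecule that binds α4 integrins. With 11578 and 14509 counts in MIZ-1WT and 72122 and 39455 in MIZ-1△POZ it was the most counted of the genes in every library. The groups were separated by 2.60-fold between their nearest libraries, and the log2 fold change was 1.98 (SE 0.26, edgeR adjusted p = 0.00376). Csf1r exons overlap those of Hmgxb3, and Vcam1 exons those of the antisense gene Gm43109, on the opposite strand; the strand setting of the counting is not given in the sources used here.

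Adgre1 (ENSMUSG00000004730, chr17:57358691-57483527, plus strand) encodes F4/80, the antigen by which mouse red pulp macrophages are usually recognised. It was counted 3367 and 4384 times in MIZ-1WT and 17916 and 9587 times in MIZ-1△POZ. The nearest libraries of the genotypes were 2.09-fold apart, the narrowest gap among the 9, and the log2 fold change of 1.71 was the smallest (SE 0.27, edgeR adjusted p = 0.00664). Cd163 (ENSMUSG00000008845, chr6:124304656-124330527, plus strand), the scavenger receptor for haptoglobin and hemoglobin, had 764 and 843 counts in MIZ-1WT and 3900 and 2249 in MIZ-1△POZ. The MIZ-1WT libraries were close together, and the mean rose from 18.8 ± 1.80 to 66.6 ± 21.7 CPM (log2 fold change 1.83, SE 0.22, edgeR adjusted p = 0.00312).

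The 3 genes that act on heme and iron themselves had the highest fold changes of the 9. Slc40a1 (ENSMUSG00000025993, chr1:45908068-45926523, minus strand), which encodes ferroportin, the iron exporter, was counted 3526 and 5152 times in MIZ-1WT and 34938 and 19764 times in MIZ-1△POZ. Its nearest libraries were 3.67-fold apart, the widest gap, and its mean rose 5.82-fold from 102 ± 29.5 to 592 ± 201 CPM (log2 fold change 2.54, SE 0.29, edgeR adjusted p = 0.00260). Hmox1 (ENSMUSG00000005413, chr8:75093621-75100589, plus strand), heme oxygenase 1, had 1707 and 2824 counts in MIZ-1WT and 16044 and 9687 in MIZ-1△POZ. Here the MIZ-1WT libraries differed most, and the mean still rose 5.25-fold, from 53.2 ± 19.8 to 279 ± 82.3 CPM (log2 fold change 2.39, SE 0.30, edgeR adjusted p = 0.00346). Slc11a1 (ENSMUSG00000026177, chr1:74375195-74386062, plus strand), the phagosomal metal transporter NRAMP1, had 663 and 723 counts in MIZ-1WT and 4589 and 2595 in MIZ-1△POZ. Its MIZ-1WT libraries were the closest of all 9 genes, and the log2 fold change was 2.26 (SE 0.24, edgeR adjusted p = 0.00208). The 95% intervals of all 9 log2 fold changes overlapped, from 1.03 to 2.39 for Adgre1 and from 1.82 to 3.26 for Slc40a1, and differences between genes were not tested.

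**Figure D2:**
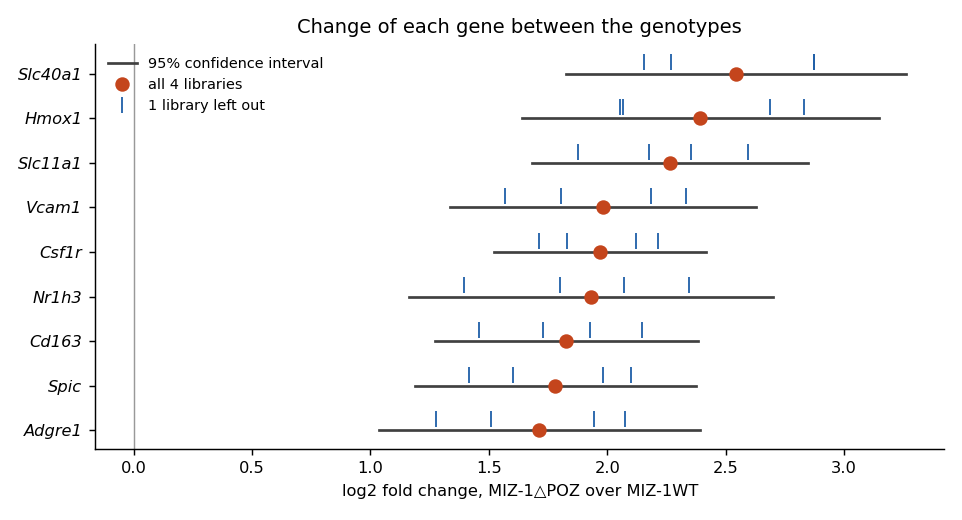
Log2 fold change of MIZ-1△POZ over MIZ-1WT for each gene (red points) with its 95% confidence interval from the edgeR fit (lines), and the estimates with 1 library left out (blue ticks). Every point and tick lies to the right of 0, from 1.28 for Adgre1 to 2.87 for Slc40a1 among the ticks.

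The mix of the 9 genes changed less than their total. Their summed counts were 27247 and 35197 in MIZ-1WT and 180661 and 102716 in MIZ-1△POZ, a 4.20-fold rise of the mean in CPM. Within that sum, Vcam1 took 42.5% and 41.2% in MIZ-1WT and 39.9% and 38.4% in MIZ-1△POZ. Slc40a1 took 12.9% and 14.6% against 19.3% and 19.2%, so its share was higher in both MIZ-1△POZ libraries. Adgre1 went the other way, with 12.4% and 12.5% against 9.92% and 9.33%. Hmox1 took 6.26% and 8.02% against 8.88% and 9.43%, and Spic 5.43% and 5.28% against 4.34% and 4.42%. The shares of Csf1r and Nr1h3 overlapped between the genotypes, and those of the other genes did not.

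The 9 genes were also set against 18 other markers of splenic macrophages, such as the complement C1q chains, the mannose receptor Mrc1 and the lysosomal protease gene Ctsd. For each library the mean log2 CPM of the 18 was subtracted from each gene. After this subtraction Slc40a1 was still 0.72 higher in MIZ-1△POZ on the log2 scale, with relative levels of 1.96 and 2.25 in MIZ-1WT and 2.96 and 2.69 in MIZ-1△POZ. Hmox1 was 0.60 higher, Slc11a1 0.41 and Csf1r 0.15, and for these 4 of the 9 genes the MIZ-1△POZ libraries lay above the MIZ-1WT libraries without overlap. The same was true of 1.5% of all genes tested and of 8 of the 18 markers themselves, whose relative values average 0 by construction. The 18 rose in MIZ-1△POZ with a median log2 fold change of 1.98, so a gene without a like rise falls lower by construction. The 1.5% is therefore not a neutral share beside which to read the 4 of 9. For Vcam1 (0.14), Nr1h3 (0.05), Cd163 (-0.02), Spic (-0.06) and Adgre1 (-0.13) the libraries of the genotypes overlapped. These relative levels were compared by their libraries only, since 2 against 2 allows no exact permutation p below 0.333 (two-sided).

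**Figure D3:**
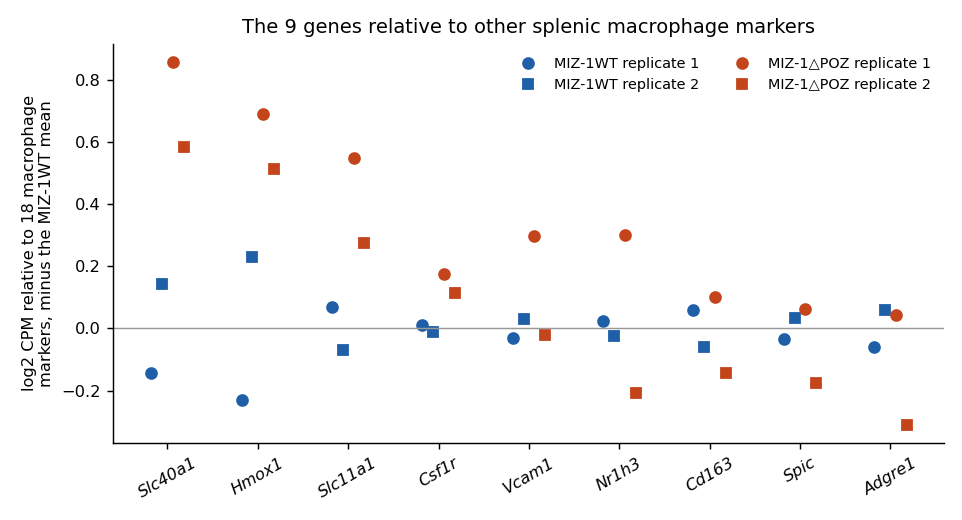
Log2 CPM of each gene minus the mean of 18 other splenic macrophage markers in the same library, shown relative to the MIZ-1WT mean (0 line), with MIZ-1WT in blue, MIZ-1△POZ in red, and circles and squares for replicates 1 and 2. Slc40a1, Hmox1, Slc11a1 and Csf1r have both red points above both blue points, whereas the colours overlap for the other 5 genes.

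The replicates of these genes differed more than those of most genes, and in a common direction. In MIZ-1△POZ, replicate 1 exceeded replicate 2 for 9 of 9 genes, by 0.49 (Csf1r) to 0.94 (Nr1h3) log2 CPM with a median of 0.70, while over all genes tested replicate 1 was the higher in 49.5% and the median absolute difference was 0.11. In MIZ-1WT it was replicate 1 that was lower for 9 of 9 genes, by 0.18 (Slc11a1) to 0.78 (Hmox1) with a median difference of -0.38, against 51.1% of all genes and a median absolute difference of 0.09. In MIZ-1△POZ, 2.62% of all genes had a larger absolute replicate difference than Nr1h3, and 10.8% a larger one than Csf1r. In MIZ-1WT the share with a larger difference was 4.36% for Hmox1 and 30.8% for Slc11a1. The 9 genes are read from the same libraries, so their common direction is 1 observation per genotype.

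Markers of other cells moved with the replicates in different ways. The 18 other splenic macrophage markers summed to 659 and 809 CPM in MIZ-1WT and 3166 and 2251 in MIZ-1△POZ, the same order as the 9 genes, and 16 of the 18 were higher in MIZ-1△POZ replicate 1 than in replicate 2. The erythroid markers followed that order in MIZ-1WT and went against it in MIZ-1△POZ: the 9 tested of 10 summed to 50.6 and 63.0 CPM in MIZ-1WT and 43.3 and 119.9 in MIZ-1△POZ, and 1 of 9 was higher in MIZ-1△POZ replicate 1. Of these only Epor, the erythropoietin receptor, named after its values were seen, passed the test (log2 fold change 2.20, 28 and 25 counts against 149 and 112); without MIZ-1△POZ replicate 1, 8 were called higher, and without MIZ-1△POZ replicate 2, 1 was called lower. The β-globin gene Hbb-bs, the most abundant erythroid marker, had 1374 and 1643 counts in MIZ-1WT and 1191 and 3128 in MIZ-1△POZ. The part of red cell RNA in the levels of the 9 genes was not tested.

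**Figure D4:**
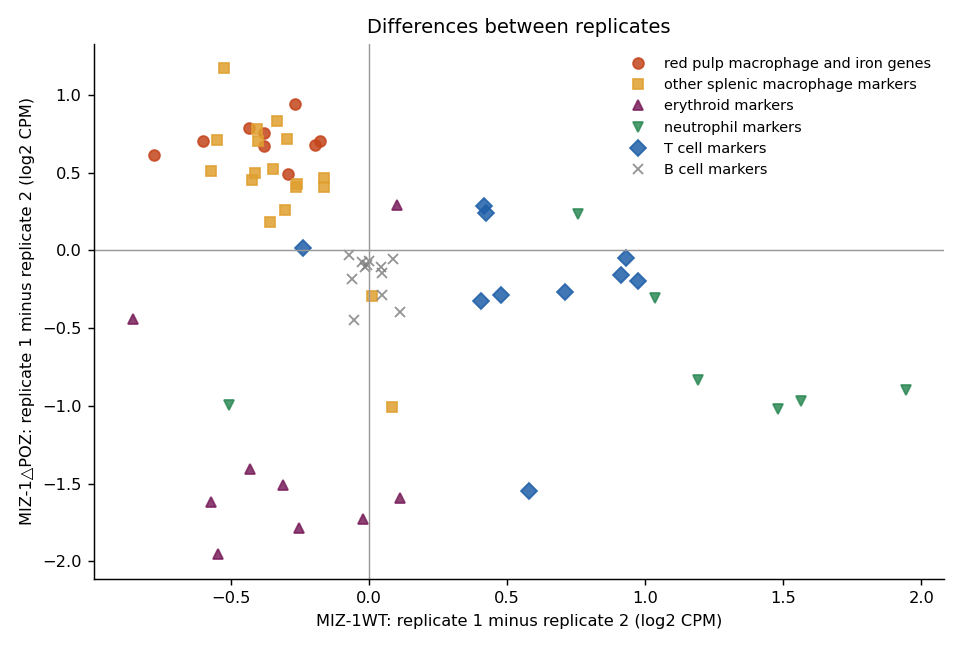
Difference between replicate 1 and replicate 2 in log2 CPM in MIZ-1WT (horizontal axis) and MIZ-1△POZ (vertical axis), 1 point per gene, for the 9 genes (red circles) and 5 marker lists. The 9 genes and 16 of the 18 other macrophage markers fall in the upper left, with negative differences in MIZ-1WT and positive ones in MIZ-1△POZ, whereas 8 of the 9 erythroid markers lie below 0 in MIZ-1△POZ.

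Among other splenic cell types, macrophage markers rose most evenly. All 18 other splenic macrophage markers were called higher in MIZ-1△POZ, with a median log2 fold change of 1.98, beside the background of 21.1%. This list, too, was chosen with earlier results of these data known. C1qa, a chain of complement C1q, had 2512 and 3207 counts in MIZ-1WT and 17763 and 9524 in MIZ-1△POZ (log2 fold change 2.14). Of 6 genes listed as marginal zone macrophage markers, not all of them specific to these cells, 5 were higher and Cd209a was lower (-1.35). Among the 5 were Marco and Siglec1, which encode scavenger and sialic acid receptors, and Cd209b at low counts (4 and 4 against 16 and 17). By DESeq2 3 were called higher, and fewer were also called when any 1 library was left out. Siglec1 had 46 counts in each MIZ-1WT library and 646 and 474 in the MIZ-1△POZ libraries.

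Counts for the lists of other cells are read beside the 21.1% of all tested genes called higher and 18.9% called lower. Of 6 monocyte markers 3 were higher, Ly6c2, Cd14 and Cx3cr1, with 1 called without MIZ-1WT replicate 2 and 5 without MIZ-1△POZ replicate 1. Of the 7 neutrophil markers tested 2 were higher, the receptor gene Csf3r and the granule gene Ltf, with 1 called without MIZ-1WT replicate 1 or without MIZ-1△POZ replicate 2. Conventional dendritic cell markers gave 3 higher of 7, Zbtb46, Flt3 and Itgax, and 1 lower, Ccr7 (2 lower without MIZ-1△POZ replicate 1). Of 7 plasmacytoid dendritic cell markers Pacsin1 was higher and none lower, though 2 were called lower without MIZ-1△POZ replicate 1. Among 10 T cell markers 2 were higher, Cd4 and Cd28. Of the 4 stromal and endothelial markers tested Stab2 was higher and Pecam1 lower, the call on Pecam1 being lost without MIZ-1WT replicate 1 and without MIZ-1WT replicate 2. The neutrophil gene S100a9 had 357 and 88 counts in MIZ-1WT and 180 and 311 in MIZ-1△POZ and did not pass the test. Stab2, a scavenger receptor of sinusoidal endothelium, was counted 449 and 518 times against 2212 and 1532 (log2 fold change 1.85). Cdh5 (0.42) and Kdr (0.22), on the same list, did not pass. Pecam1 was at a mean of 309 CPM in MIZ-1WT, against 1.79 for Cdh5 and 1.09 for Kdr. Which cells gave the Pecam1 counts was not tested. Of 12 B cell markers 9 were lower and 1, the complement receptor Cr2, higher, with a median log2 fold change of -0.26; leaving out MIZ-1WT replicate 1 or MIZ-1WT replicate 2 left 3 lower, and the call on Cr2 was also lost without MIZ-1△POZ replicate 2. Their summed CPM was 13283 and 13521 in MIZ-1WT and 11427 and 12145 in MIZ-1△POZ. Cd79a, whose promoter drives MB1-Cre, had the lowest log2 fold change of the 12, -1.44 (14668 and 13089 against 4891 and 5939 counts). The part of the Cre allele in this change was not tested.

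The rest of the heme and iron pathway did not move as a whole in these bulk counts. The counts sum over all cells of a preparation rich in B cell transcripts, so levels within the macrophages were not measured. In the heme list 4 of 11 genes were higher and 1 lower, beside 21.1% and 18.9% of all genes tested, with a median log2 fold change of -0.02. Blvra and Blvrb, the biliverdin reductases that act after heme oxygenase, rose by 0.94 (SE 0.10, adjusted p = 0.00202 by edgeR) and 0.56 (SE 0.10, adjusted p = 0.00830 by edgeR). Slc48a1, the heme transporter of the phagolysosome, had 930 and 974 counts in MIZ-1WT and 2572 and 2123 in MIZ-1△POZ, a rise of 1.20, and Lrp1, the receptor for hemopexin-bound heme, rose by 1.84. Hmox2, the constitutive heme oxygenase, did not pass, with 3428 and 3079 counts against 3644 and 3220 (log2 fold change -0.02, SE 0.06), unlike Hmox1.

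Of the factors that govern Hmox1 transcription, the best known did not pass the test. Bulk counts do not show their levels in the cells that express Hmox1. Bach1, which represses Hmox1 until heme binds it, had a log2 fold change of -0.03, Nfe2l2, which encodes its activator NRF2, -0.02, and Keap1, the NRF2 inhibitor, -0.06, each with a standard error of 0.05 to 0.06. Mafk (-0.14), a small MAF partner of both, and the heme exporter gene Flvcr1 (0.23) did not pass either. Bach2, a related repressor best known in B cells, fell by 0.52 (SE 0.14, edgeR adjusted p = 0.0295), a call lost without MIZ-1WT replicate 1 and without MIZ-1WT replicate 2.

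In the list of iron uptake, storage and export 5 of the 15 tested genes were higher and 2 lower (21.1% and 18.9% of all genes), with a median log2 fold change of 0.04. Hfe, which encodes a regulator of transferrin sensing, had 407 and 442 counts in MIZ-1WT and 2999 and 1749 in MIZ-1△POZ and rose by 2.37. Trf, transferrin itself, rose by 2.24 (873 and 1105 against 6847 and 3291 counts), and both showed the higher count in MIZ-1△POZ replicate 1 as the 9 genes did. Ftl1, the ferritin light chain, had 11420 and 11326 counts against 28636 and 20371 (log2 fold change 1.00, SE 0.12), while Fth1, the heavy chain, had 6940 and 6144 against 6431 and 6652 and did not pass (-0.09, SE 0.07); both have near-identical pseudogene copies, which makes their counts uncertain.

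Of the other iron genes, the ferroxidase gene Cp rose by 1.82 at low counts (14 and 28 against 83 and 77), and the metal importer gene Slc39a14 rose by 0.50. Slc25a37, mitoferrin 1, fell by 0.69 and Tfrc, the transferrin receptor, fell by 0.28, the second with 6636 and 6576 counts in MIZ-1WT and 6273 and 5375 in MIZ-1△POZ; leaving out MIZ-1WT replicate 1 or MIZ-1WT replicate 2 left 1 gene of the list lower. Ncoa4 (0.21), Slc11a2 (-0.01), the paralog of Slc11a1, Pcbp1, Pcbp2, Slc25a28, Steap3 and Steap4 did not pass, and Heph was not tested. Of the iron regulatory list 3 of 7 genes were tested: Aco1, which encodes IRP1, rose by 0.30, Ireb2, which encodes IRP2, fell by 0.25, and Fbxl5 did not pass (-0.16); both calls were lost without MIZ-1WT replicate 1 and without MIZ-1WT replicate 2.

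Around Nr1h3, 4 of 11 LXR partners and targets were higher and 4 lower (21.1% and 18.9% of all genes), with a median log2 fold change of 0.08. Rxra, the partner with which LXR binds DNA, rose by 1.79 (448 and 558 against 2320 and 1437 counts), and Nr1h2, the gene of the other LXR, fell by 0.47 (2953 and 2661 against 2127 and 2188). Among targets, Lpl (2.64), Apoe (1.59) and Abcg1 (0.58) rose, whereas Abca1, the cholesterol exporter, fell by 0.36 and Mylip, which degrades the LDL receptor, by 0.49. Rxrb fell by 0.21, Srebf1 (0.08), Lpcat3 (0.09) and Pltp (-0.14) did not pass, and without MIZ-1WT replicate 1 a single gene of the list was called lower.

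In the list of CSF1 receptor ligands and myeloid factors 3 of 7 tested genes were higher (21.1% of all genes), Cebpa, Cebpb and Csf2ra, and 2 lower, Irf8 and Runx1 (1 lower when either MIZ-1WT library or MIZ-1△POZ replicate 2 was left out). Spi1, which encodes PU.1 and is also expressed in B cells, had 1839 and 1713 counts in MIZ-1WT and 1853 and 1852 in MIZ-1△POZ (log2 fold change -0.03, not past the test). Cebpb, a myeloid factor, rose by 1.62 from 129 and 135 to 494 and 377 counts. Of the VCAM1 partners, the integrin subunit gene Itgb1 rose by 0.81, Itgb7 fell by 0.76, and Itga4 did not pass (-0.20), though 2 of the 3 were called lower without MIZ-1△POZ replicate 2.

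**Figure D5:**
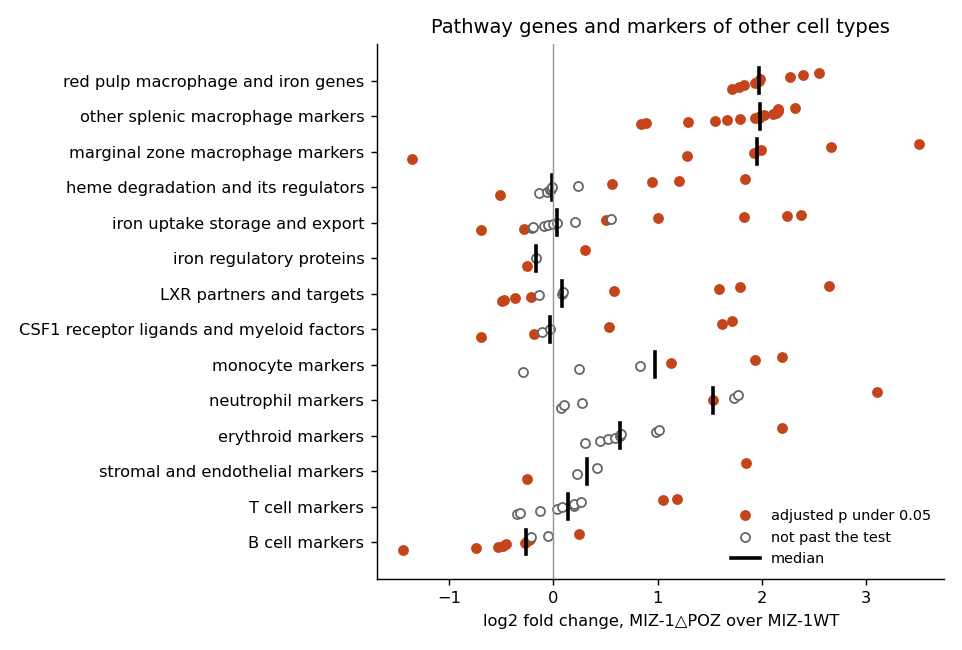
Log2 fold change of MIZ-1△POZ over MIZ-1WT for each tested gene of 14 lists, with filled points for genes past the edgeR test and black bars for list medians. The 9 genes and the 18 other splenic macrophage markers lie wholly to the right of 0 with medians of 1.97 and 1.98, whereas the heme and iron lists are centred near 0.

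The genes with the pattern most like the 9 were sought among 9463 protein-coding genes with a mean of at least 5 CPM, by the Euclidean distance of their centred log2 CPM over the 4 libraries from the mean profile of the 9. The nearest 10 were Zdhhc2, Dgki, Ptgs1, Igsf6, Tlr8, C1qa, Cadm1, Cd300e, C1qb and App, at distances of 0.0515 to 0.121. Zdhhc2, a palmitoyltransferase gene, had 75 and 99 counts in MIZ-1WT and 515 and 291 in MIZ-1△POZ, and Tlr8, an endosomal RNA receptor gene, had 302 and 364 against 2024 and 1052. Vcam1 was the nearest of the 9 to their own mean (0.0764) and Slc40a1 the farthest (0.536), and 222 other genes lay nearer than Slc40a1. The likeness rests on 4 libraries.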

How the data were processed

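RNA of B220+ splenocytes, enriched with a biotinylated antibody after red cell lysis, was depleted of ribosomal RNA and sequenced as stranded paired-end libraries, 2 per genotype. The authors trimmed reads with Trimmomatic, mapped them to mm10 (GRCm38) with TopHat2 (version 2.1.0 per the submitters' processing notes) and counted them with HTSeq. They deposited raw counts per Ensembl gene, neither normalized nor pooled; the Ensembl release and strand setting are not given in the sources used here. HTSeq's summary rows were left out; of everything counted, 21.1 to 27.2% lay in no gene and 42.8 to 44.1% had no unique position. Identifiers were matched to GENCODE M21 symbols (40340 of 41214).

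The 14554 genes reaching a count of 10 in 2 or more libraries were fitted with edgeR 4.0.16 in R 4.3.3, by the quasi-likelihood test with TMM scaling and genotype as the only term, and p-values were adjusted by Benjamini-Hochberg over all of them. The fit was tested on simulated data. Intervals are 95%, and log2 CPM used a prior count of 2. The p-values set the genotype difference against the spread between libraries, moderated over all genes. The study calls the libraries biological replicates, and how much of that spread is technical was not tested. Alternatives were DESeq2 1.42.0, its size factors, other count filters, a replicate block, removal of 257 immunoglobulin genes, each library left out, and a log2 fold change limit of 0.6 with an unadjusted p under 0.05.

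The members and the gene lists were chosen with earlier results of these data known. By rule, the 9 genes were named with all their counts. Also named by rule were any gene of the heme, iron and LXR lists, the 10 nearest genes, and Zbtb17 to check the labels. Of every other list at most the 4 genes with the highest mean RPKM were named. Cd209b, Cd79a, Cebpa, Csf2ra, Cx3cr1, Ddx3y, Epor, Kdm5d, Ltf, Mrc1, Xist and Zbtb46 are outside the rule and were named after their values were seen.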

Additional observations from a re-analysis of the deposited data

How the results depend on the processing

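All 9 genes were called higher under DESeq2, DESeq2 size factors, both other filters, removal of immunoglobulin genes, the replicate block and a log2 fold change limit of 0.6 with an unadjusted p under 0.05. With 1 library left out 8 to 9 were called, Nr1h3 being lost without MIZ-1WT replicate 1 (log2 fold change 1.80, adjusted p = 0.0548), where the lone library is assumed to vary like the other group. Their median log2 fold change was 1.95 to 2.01 under the other settings and 1.57 (without MIZ-1△POZ replicate 1) to 2.33 (without MIZ-1△POZ replicate 2) with 1 library left out. No direction of the 9 reversed.

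The number of all genes called, 5822, was 2222 to 5581 with 1 library left out, lowest without MIZ-1WT replicate 1 and next without MIZ-1WT replicate 2 (2843), and 2960 under the 0.6 limit; DESeq2 gave 5066. In the heme, iron and iron regulatory lists 14 genes were called, 9 to 16 with 1 library left out and 8 under the 0.6 limit. With the replicate block 4732 of all genes, 14 of these lists and all 9 genes were called. Same-numbered libraries did not deviate together over all genes tested (correlation of deviations -0.07). A value over all genes cannot exclude pairing in a part of them. In the MIZ-1WT libraries the order by RPKM kept 7 of 9 ranks with transcript length. With 2 libraries per genotype, and replicates of these genes 0.18 to 0.94 log2 units apart, fold changes are known only within wide intervals; counts of at least 402 mean that depth is not what limits them.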
